A study of Mus musculus with 31 samples.

Results

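The 8 genes described here are long noncoding RNAs of brain and of the cell nucleus: Meg3, Rian, Mirg, Malat1, Neat1, Miat, Snhg11 and Snhg14. They were grouped as abundant RNAs, a name that the level of Neat1, 0.99 on the length-scaled measure used below, goes against. They were taken by gene symbol from a count table of 48795 genes, and Meg3, Rian and Mirg, which lie in a row in an imprinted domain, are considered as a group of their own beside the other 5. The table holds total RNA sequencing of mouse brain made to study exposure during development to the pyrethroid insecticide deltamethrin, which holds voltage-gated sodium channels open. Its 31 libraries comprise 13 from mice labelled control and 18 from mice labelled deltamethrin, and every library is labelled brain. The labels used here name no strain, genotype, sex, age, dose, litter or batch for either group, and they do not say that libraries came from separate animals, so p-values measure only the spread between these samples. RNA was drawn from aliquots of homogenised brain tissue, and in such bulk RNA fewer cells of a type and less RNA per cell cannot be told apart.

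Long noncoding RNAs are transcripts with no long open reading frame that act as RNA or through the act of being transcribed. Meg3, Rian and Mirg are transcribed from the maternal copy of the Dlk1-Dio3 domain, where Rian is the host of box C/D small nucleolar RNAs (snoRNAs) and Mirg is the host of a large microRNA (miRNA) cluster, while the paternal copy gives the protein-coding genes Dlk1, Rtl1 and Dio3. Malat1 is enriched in nuclear speckles, the bodies that store splicing factors, and Neat1 is the RNA scaffold of paraspeckles. Miat, also called Gomafu, is a neuronal RNA held in nuclear bodies of its own, Snhg11 is a snoRNA host transcript of neurons, and Snhg14 is the paternally transcribed host of the Snord115 and Snord116 snoRNAs that runs antisense into Ube3a.

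Total counts ran from 17570311 to 38680621 per library. All 8 genes passed the filter on low counts that left 19529 genes for testing, and the smallest count of any of them in any library was 237, for Neat1. Mitochondrial ribosomal RNA (mt-rRNA), the rRNA read from the mitochondrial genome, took between 7.32% and 40.2% of the counts, with the highest share in control replicate 2. The 13 control libraries had a mean share of 16.2% ± 9.12 (SD) and the 18 deltamethrin libraries one of 14.4% ± 4.98 (two-sided permutation p = 0.525). The tissue label was checked with 11 neuronal markers, all detected, whose summed level ranged from 3490 to 7010 CPM (counts scaled to a common library size by TMM factors) in control and from 4670 to 7230 CPM in deltamethrin libraries.

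The 8 RNAs together made up 0.383% ± 0.0724 of all counts (SD, n = 31). Compared per length, as CPM per kilobase of exon (RPKM), Malat1 was the most abundant at 305 RPKM and Snhg11 followed at 46.4 RPKM. Rian at 24 RPKM and Meg3 at 23.1 RPKM were not separated, since Rian was higher in 20 of the 31 libraries. Snhg14 came next at 12.5 RPKM, below Meg3 in 28 libraries. Miat at 6.12 RPKM and Mirg at 5.17 RPKM were not separated either, with Miat higher in 24 libraries, and Neat1 was the least abundant at 0.99 RPKM. Each of the other neighbouring pairs in this order kept its order in all 31 libraries. Exon lengths were those of all annotated isoforms merged, from 6.98 kb for Malat1 to 26.1 kb for Snhg14, so an RNA present mainly as a short isoform has an understated RPKM.

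The question set by the design was whether deltamethrin and control brains differed. None of the 8 RNAs differed by edgeR's quasi-likelihood test at an adjusted p under 0.05, where 0.0% of all genes tested did, and 0 of the 8 had an unadjusted p under 0.05, where 4.37% of all genes (853) did. DESeq2 and limma voom called 0 of the 8 too, also at an unadjusted p under 0.05. Of the 8 RNAs, 4 had a log2 fold change above 0, as had 50.5% of all genes, and 4 below it, as had 49.5%. Their median log2 fold change (deltamethrin over control) was -0.0037, and that of all genes tested was 0.0014.

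**Figure D1:**
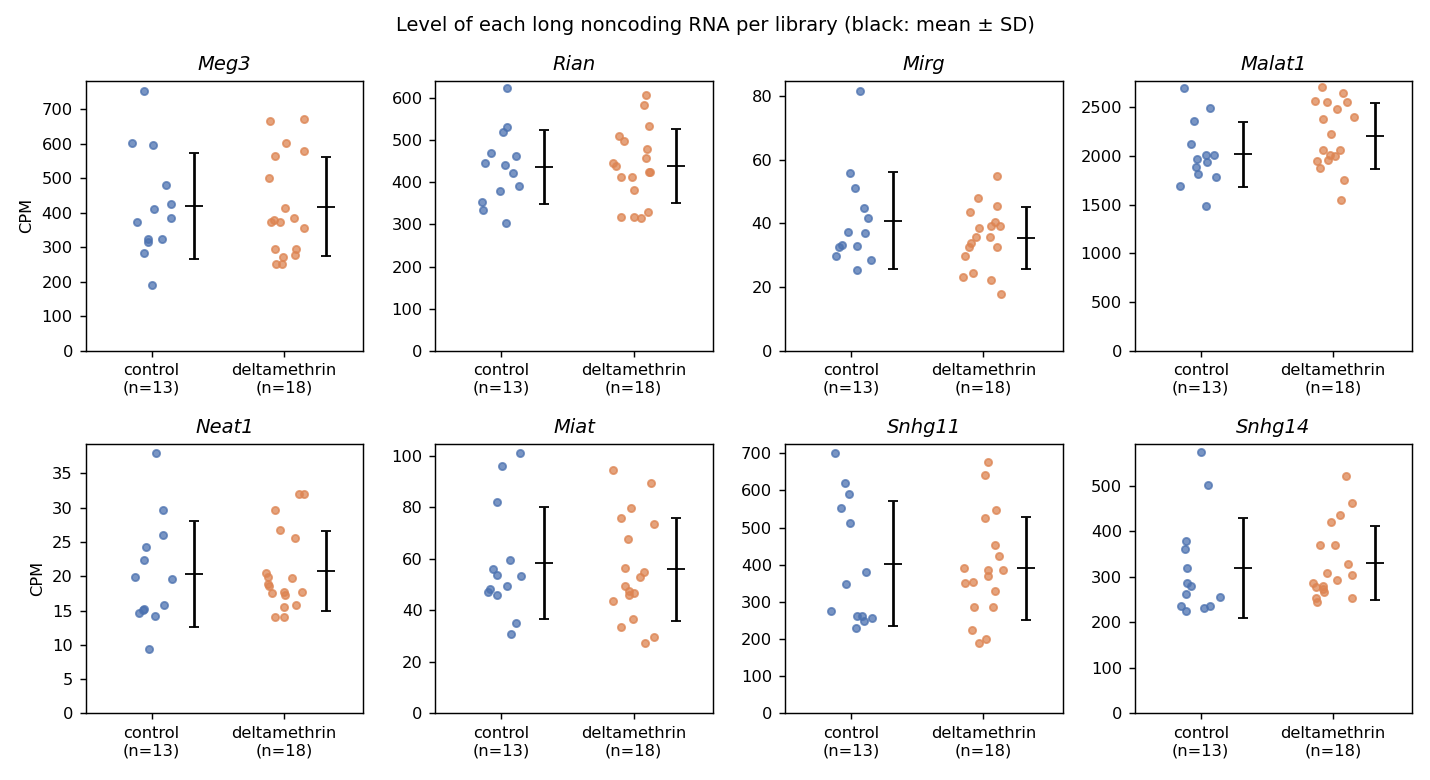
Level of each RNA in CPM (y axis, from 0) in every library of the control (n = 13) and deltamethrin (n = 18) groups; points are libraries and the black marks are the mean ± SD. The groups overlap for all 8 RNAs, and the highest Mirg value, 81.5 CPM, is a single control library.

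Meg3, Rian and Mirg lie on the forward strand of chromosome 12 within 208 kb (GRCm38 coordinates from GENCODE M21). Meg3 is at chr12:109541001-109571726, Rian at chr12:109603940-109661716 and Mirg at chr12:109729764-109749460. The start regions of Meg3 and Rian are printed here because the correlation of these neighbours across libraries, given below, was low before adjustment for library composition, and that of Miat because Miat varied with Meg3. Each window runs from 250 bases before the RefSeq start to 50 bases after it, on GRCm38.p6 and on the strand of the gene. They are chr12:109540746-109541045 for Meg3, chr12:109603695-109603994 for Rian and chr5:112228899-112229198, read on the reverse strand, for Miat. Capitals mark the cAMP response element TGACGTCA and the TATA box letters in the Meg3 window, which is the first of 2 RefSeq windows for this gene.
Meg3: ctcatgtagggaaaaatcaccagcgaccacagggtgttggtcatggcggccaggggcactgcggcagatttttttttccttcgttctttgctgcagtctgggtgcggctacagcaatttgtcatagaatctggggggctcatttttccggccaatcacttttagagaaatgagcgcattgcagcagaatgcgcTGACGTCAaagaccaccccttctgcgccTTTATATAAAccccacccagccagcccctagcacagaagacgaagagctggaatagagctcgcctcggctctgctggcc
Rian: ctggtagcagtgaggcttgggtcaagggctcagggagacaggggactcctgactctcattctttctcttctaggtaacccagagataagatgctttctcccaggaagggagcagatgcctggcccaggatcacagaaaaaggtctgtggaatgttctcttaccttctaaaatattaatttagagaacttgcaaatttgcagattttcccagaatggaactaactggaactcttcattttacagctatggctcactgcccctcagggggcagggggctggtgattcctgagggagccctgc
Miat: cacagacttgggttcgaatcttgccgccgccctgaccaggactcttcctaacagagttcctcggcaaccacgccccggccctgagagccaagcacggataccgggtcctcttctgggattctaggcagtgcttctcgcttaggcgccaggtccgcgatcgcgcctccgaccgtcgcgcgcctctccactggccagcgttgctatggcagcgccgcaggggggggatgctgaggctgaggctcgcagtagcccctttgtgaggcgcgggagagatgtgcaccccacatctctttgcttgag

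The letters TGACGTCA, a palindrome bound by CREB and ATF family factors, begin 57 bases before the Meg3 start and occur in 1.79% of the 32851 RefSeq windows of this length. The capitals nearer the Meg3 start hold TATAAA on both strands, found in 13.6% of windows, and TATATAA, found in 3.24% of windows, likewise on both strands. The windows of Rian, Mirg, Miat, Snhg11 and Snhg14 held neither of the TATA box motifs nor TGACGTCA on either strand, and they also lacked its shorter form TGACG and the E-box, which is spelled CACGTG (7.15% of all windows hold that), while the Malat1 window held TGACG or its complement at 3 places (20.8% of all windows hold it). The Rian window had 0 CG dinucleotides, the Meg3 window 13 and the Miat window 25, against a median of 7 over all windows. RefSeq's start lay 447 bases from the GENCODE gene start for Miat, 5217 bases from it for Mirg and 474418 bases from it for Snhg14. Bases that follow RefSeq's start were found near the start of a GENCODE transcript for Miat and Mirg. They were not found for Snhg14, so that window may not belong to the transcripts counted here. These matches describe the letters only, and the list of motifs was set after the Meg3 window had been read.

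Meg3 ran from a lowest value of 190 through a median of 386 to a highest value of 753 CPM in the 13 control libraries, and from 251 through 377 to 671 CPM in the 18 deltamethrin libraries. Its lowest and highest values were both in control libraries, replicates 1 and 13, and the groups overlapped. Its log2 fold change was -0.01 ± 0.17 (SE; 95% interval -0.36 to 0.34; unadjusted p = 0.943, adjusted p = 0.988 by edgeR's quasi-likelihood test). That interval reached from 0.778 to 1.26 times the control level.

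Rian varied less than its neighbours. Its control libraries ran from 302 through a median of 441 to 625 CPM, and its deltamethrin libraries from 314 through 432 to 608 CPM. The groups overlapped over nearly their whole range, with the highest control value in replicate 2. Between the groups the log2 fold change was 0.01 ± 0.10 (95% interval -0.21 to 0.22; unadjusted p = 0.962, adjusted p = 0.993). The biological coefficient of variation (BCV), the spread between libraries beyond counting noise, was 20.1% for Rian, near the 18.3% of the median gene, against 32.7% for Meg3 and 28.4% for Mirg.

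The highest library of Mirg stood at 4.57 times its lowest, the widest range of the 8 RNAs, but at 3.14 times without control replicate 2, below the 4.01 of Neat1. It ran from 25.2 through a median of 37.0 to 81.5 CPM in control and from 17.8 through 35.7 to 54.9 CPM in deltamethrin libraries. The groups overlapped, and the highest value, from control replicate 2, stood above the other 30 libraries, of which the next was at 55.9 CPM. The log2 fold change of Mirg was -0.20 ± 0.15 (95% interval -0.51 to 0.10; unadjusted p = 0.182, adjusted p = 0.813). Without control replicate 2, the library with the highest mt-rRNA share, the log2 fold change was -0.09 (adjusted p = 0.931).

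**Figure D2:**
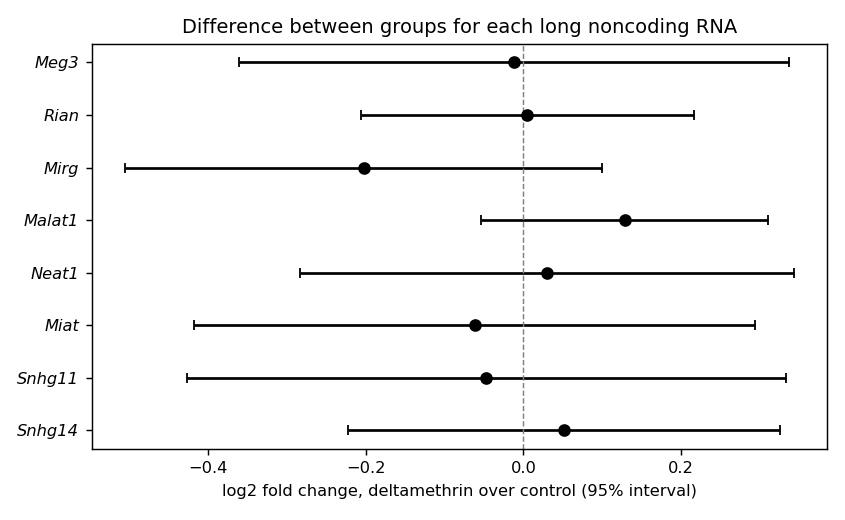
Log2 fold change of each RNA, deltamethrin over control (x axis), from edgeR's quasi-likelihood fit; points are estimates and bars are 95% intervals. All 8 intervals include 0, and the widest, of Snhg11, runs from -0.43 to 0.33.

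Because the 3 imprinted RNAs are read from the same strand of the same parental copy, their proportions were compared within each library. Rian counts per Meg3 count ran from 0.551 in deltamethrin replicate 11 to 2.35 in control replicate 1, a 4.27-fold range. Mirg counts per Rian count ran from 0.0466 to 0.131, a 2.8-fold range, and Mirg counts per Meg3 count from 0.0517 to 0.191, a 3.7-fold range. In deltamethrin replicate 11 Meg3 stood at 577 CPM with Rian at 318 CPM, whereas in deltamethrin replicate 8 Meg3 stood at 276 CPM with Rian at 608 CPM. The mean ratio of Rian to Meg3 over the 13 control libraries was 1.15 ± 0.451 (SD), against 1.16 ± 0.407 over the 18 deltamethrin ones.

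Levels were then correlated as log2 CPM over the 31 libraries. Pearson r and Spearman rho were computed for the 28 pairs of RNAs and for each RNA with the mt-rRNA share, and p-values from 100000 permutations, whose smallest possible value is 1e-05, were adjusted over these 36 relations. Rian and Mirg varied together, with r = 0.808 and rho = 0.861 (permutation p = 1e-05, adjusted p = 4e-05), r = 0.865 within control, r = 0.803 within deltamethrin and r = 0.816 without the 2 libraries farthest from the median. Meg3 and Mirg gave r = 0.508 and rho = 0.545 (permutation p = 0.00336, adjusted p = 0.00821), with r = 0.517 and r = 0.521 within the groups, where adjusted p was 0.15 and 0.0649, and r = 0.498 without the 2 farthest libraries. Meg3 and Rian gave r = 0.252 (95% interval -0.113 to 0.556) and rho = 0.309 (permutation p = 0.173 for r, adjusted p = 0.26, and 0.091 for rho), with r = 0.323 within control, 0.198 within deltamethrin and 0.279 without the 2 farthest libraries. Among 10052 genes ranked by their correlation with Meg3, Rian was number 1116 and Mirg number 359. Ranked by correlation with Rian, Mirg was number 457. Ranked by correlation with Mirg, Rian was number 168, after Snhg11 at number 155.

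The pair of Meg3 and Rian was more closely related once the mt-rRNA share was held constant, a step chosen after the data had been seen. Their partial correlation was 0.494 (permutation p = 0.00459, adjusted p = 0.00857), that of Meg3 and Mirg was 0.734, and that of Rian and Mirg was 0.545. Before that step Rian had similar r with RNAs of other chromosomes, 0.325 with Miat and 0.245 with Neat1. With the share, Miat and Neat1 gave r = 0.0522 and -0.00608. With the share held constant, these values imply a rise of r for Rian with Miat and with Neat1 too. The rise was thus not particular to Meg3 and Rian, and its size was not compared between pairs. Rian itself followed the mt-rRNA share with r = 0.852 and rho = 0.851 (permutation p = 1e-05, adjusted p = 4e-05), r = 0.834 within control, r = 0.89 within deltamethrin and r = 0.834 without the 2 farthest libraries. Mirg followed it with r = 0.714 and rho = 0.721 (permutation p = 2e-05, adjusted p = 7.2e-05), r = 0.726 and r = 0.714 within the groups, and r = 0.61 without the 2 farthest libraries. With levels scaled by total count alone, without TMM factors, r with the share was lower, at 0.495 for Rian (rho = 0.571) and 0.495 for Mirg (rho = 0.533), each with an adjusted permutation p = 0.0109. Meg3 gave r = -0.00849 with that share (95% interval -0.362 to 0.347; permutation p = 0.964, adjusted p = 0.974) and rho = 0.0274 (permutation p = 0.887). Scaled by total count alone, it gave r = -0.242 with the share (permutation p = 0.191, adjusted p = 0.255). In that setting Meg3 and Rian gave r = 0.374 (permutation p = 0.0381, adjusted p = 0.0654). The mt-rRNA share went with most of the transcriptome: the median size of r over the 10053 genes with a mean of at least 10 CPM was 0.578, and 10.9% of them exceeded Rian, whereas 33.4% exceeded Mirg and 99.4% exceeded Meg3.

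**Figure D3:**
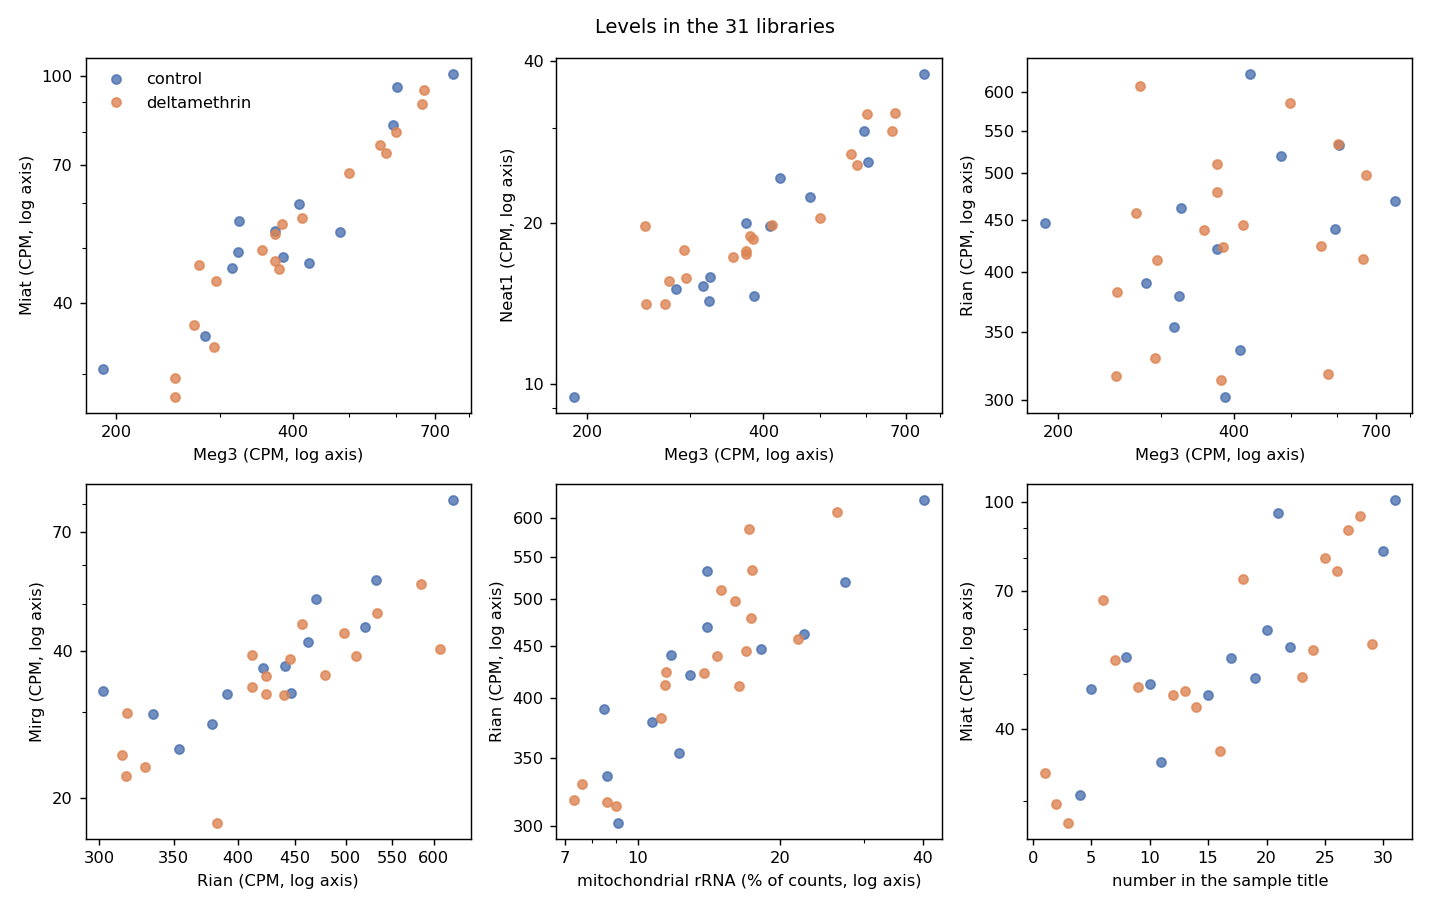
Each point is a library (control blue, deltamethrin orange; all axes logarithmic except the title number). Meg3 runs with Miat (r = 0.943) and Neat1 (r = 0.925) but is scattered against Rian (r = 0.252), while Rian runs with Mirg (r = 0.808) and with the mt-rRNA share (r = 0.852), and Miat with the number in the sample title (r = 0.770).

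Other genes annotated between the start of Meg3 and the end of Mirg number 97, of which 38 passed the filter, among them 24 of 66 miRNA genes and 10 of 23 snoRNA genes. None of the 38 had an unadjusted p under 0.05 between the groups. The most abundant was Rtl1, the paternally expressed retrotransposon-derived gene on the opposite strand, with 30.8 CPM, then the unclassified transcript Gm37899 with 11.1 CPM and the long intergenic RNA Gm26945 with 3.62 CPM. Rtl1 had a log2 fold change of -0.24 ± 0.16 (SE; unadjusted p = 0.14). Its level gave r = 0.864 with Mirg, r = 0.763 with Rian and r = 0.287 with Meg3. Rtl1 also gave r = 0.833 with the mt-rRNA share, which Mirg and Rian followed too. Whether counting used strand is not given in the sources used here, so reads of Rtl1 and of the miRNA genes that lie opposite it cannot be told apart.

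The small RNA genes were read through library fragments long enough to be sequenced, not through a small RNA protocol, so their counts may come from the host transcript. The 8 snoRNA genes with a mean count of at least 10 had a median r of 0.564 with Rian and 0.042 with Meg3, and 7 of the 8 correlated more with Rian than with Meg3. They also had a median r of 0.512 with Mirg and of 0.341 with Malat1, a gene of another chromosome, each above the r with Meg3 for 7 of the 8. Only Gm23600, Gm24564 and DQ267102 lie inside the annotated Rian, with r = 0.49, -0.255 and 0.601 with it. The rest of the 8 lie after its end. The 23 miRNA genes with a mean count of at least 10 had a median r of 0.422 with Mirg, 0.34 with Malat1, 0.333 with Rian and 0.256 with Meg3, where Malat1 again lies on another chromosome. Only Mir453, Mir154, Mir496a, Mir541 and Mir369 lie inside the annotated Mirg, with r from 0.412 to 0.779 with it. Gm37899, Gm26945 and B830012L14Rik, which lie in or after Rian on its strand, gave r between 0.223 and 0.325 with Rian but between 0.548 and 0.745 with Malat1, and r = 0.733, 0.83 and 0.858 with Snhg14. These values describe the same 31 libraries. The small RNA genes had mean counts of 10.1 to 67.9 per library, and the part of counting noise in their r was not tested. With the mt-rRNA share, which Rian followed at r = 0.852, the 8 snoRNA genes gave r from -0.213 for Gm24564 to 0.785 for Gm23787. Gm24564 was also the lowest of the 8 with Rian, at r = -0.255. The part of that share in the r with Rian was not tested.

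**Figure D4:**
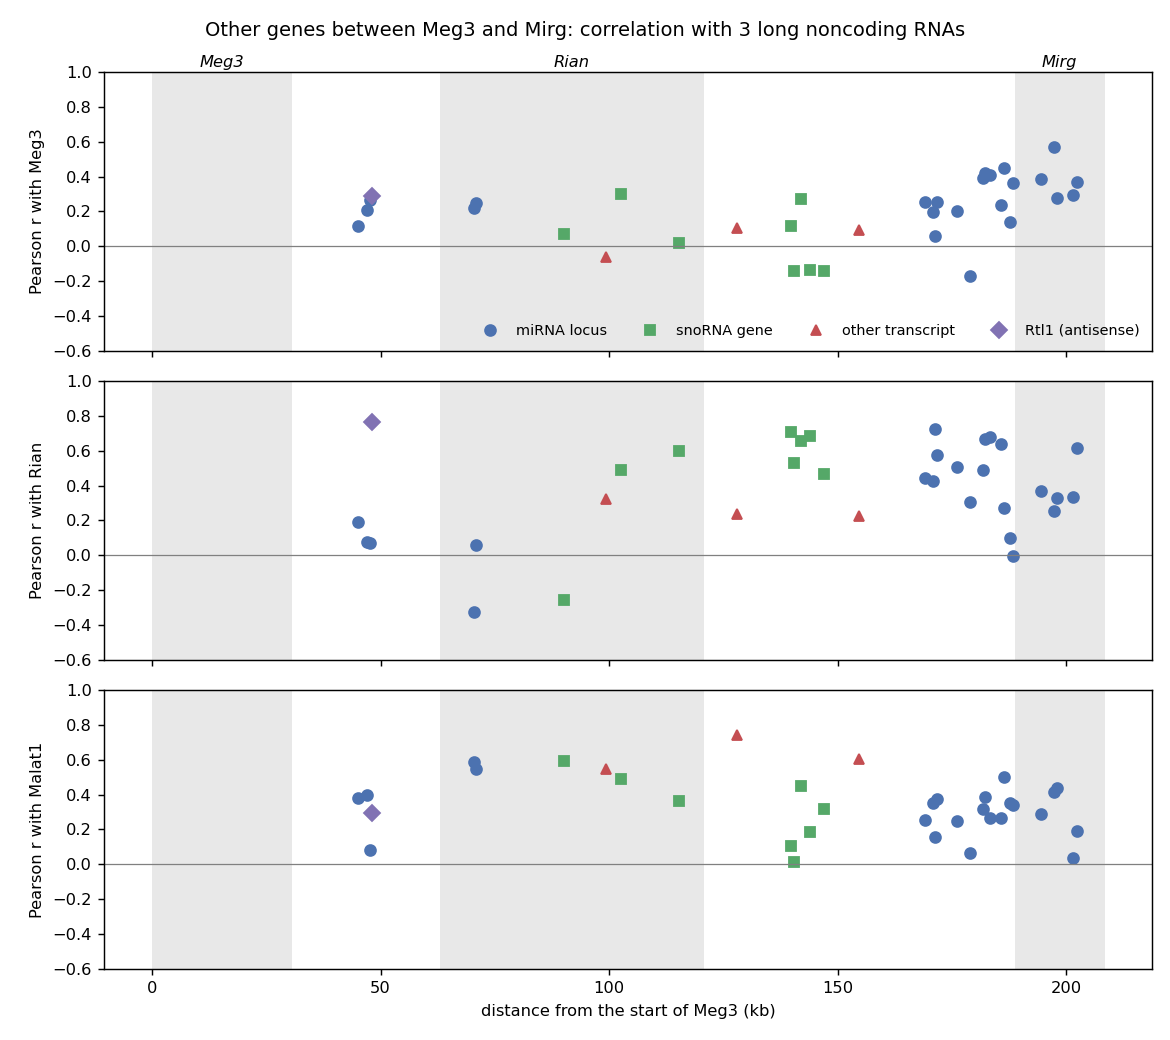
Pearson r over the 31 libraries (y axis) of each gene with a mean count of at least 10 between Meg3 and Mirg, with Meg3 (top), Rian (middle) and Malat1 (bottom), by distance from the start of Meg3 in kb; grey bands are the 3 host genes. The snoRNA genes (squares) have a median r of 0.564 in the Rian panel, 0.341 in the Malat1 panel and 0.042 in the Meg3 panel.

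The RefSeq table placed 14 miRNA hairpins with 26 mature miRNAs inside Mirg, 3 hairpins inside Rian and 1 inside Meg3. The pair within Mirg that shares a seed (bases 2 to 8, in capitals), the stretch that pairs with target messages, is printed to show that this host carries miRNAs of the same seed. The hairpin loci Mir453 and Mir496a had 1483 and 445 counts over all libraries, which do not tell their arms apart, and the mature forms printed lie at chr12:109735669-109735692 and chr12:109739132-109739152.
mmu-miR-453: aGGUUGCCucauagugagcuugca
mmu-miR-496a-5p: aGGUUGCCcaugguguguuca

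Malat1 and Neat1 are neighbours on the reverse strand of chromosome 19, at chr19:5795690-5802672 and chr19:5824708-5845478. Malat1 was the steadiest of the 8 RNAs, with its highest library at 1.82 times its lowest. It ran from 1489 through a median of 1970 to 2699 CPM in control and from 1553 through 2144 to 2710 CPM in deltamethrin libraries, and the groups overlapped. This gave a log2 fold change of 0.13 ± 0.09 (SE; 95% interval -0.05 to 0.31; unadjusted p = 0.161, adjusted p = 0.813), so levels from 0.963 to 1.24 times control lie within the interval. Neat1 was 4.01 times as high in its highest library as in its lowest. It ran from 9.46 through 19.7 to 37.9 CPM in control and from 14.1 through 18.7 to 32 CPM in deltamethrin libraries, with the deltamethrin values lying inside the control range. Its log2 fold change was 0.03 ± 0.15 (95% interval -0.28 to 0.34; unadjusted p = 0.847, adjusted p = 0.968).

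These neighbours on chromosome 19 were only weakly related. Malat1 and Neat1 gave r = 0.401 and rho = 0.387 (permutation p = 0.0242 for r, adjusted p = 0.0458), with r = 0.356 within control and 0.445 within deltamethrin, where adjusted p was 0.359 and 0.124. Without the 2 farthest libraries r was 0.385 (adjusted p = 0.084), so the relation did not pass the threshold there. With Meg3, Malat1 gave r = 0.514 and rho = 0.533 (permutation p = 0.00328 for r, adjusted p = 0.00821), with r = 0.48 within control (adjusted p = 0.181), 0.579 within deltamethrin and 0.455 without the 2 farthest libraries. Neat1 followed Meg3 more closely than it followed Malat1, with r = 0.925 and rho = 0.877 (permutation p = 1e-05, adjusted p = 4e-05), r = 0.959 within control, r = 0.912 within deltamethrin and r = 0.896 without the 2 farthest libraries. Both ends of that relation are the same control libraries: replicate 1 was lowest and replicate 13 highest for Meg3 and for Neat1 alike.

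Miat, at chr5:112213228-112229395 on the reverse strand, ran from 30.6 through a median of 53.3 to 101 CPM in control and from 27.4 through 51.2 to 94.5 CPM in deltamethrin libraries. The groups overlapped, and control replicate 13 was again the highest library. The difference came to a log2 fold change of -0.06 ± 0.18 (SE; 95% interval -0.42 to 0.29; unadjusted p = 0.727, adjusted p = 0.939). Of all 10052 genes compared, Miat was the one most like Meg3, and Neat1 the next. Meg3 and Miat gave r = 0.943 and rho = 0.917 (permutation p = 1e-05, adjusted p = 4e-05), r = 0.925 within control, r = 0.962 within deltamethrin and r = 0.934 without the 2 farthest libraries. Neat1 and Miat gave r = 0.83 and rho = 0.799 (permutation p = 1e-05, adjusted p = 4e-05), r = 0.866 and 0.845 within the groups and r = 0.791 without the 2 farthest libraries.

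Snhg11, at chr2:158375638-158386145 on the forward strand, is filed as protein coding in GENCODE M21 although it is described as a host RNA. It ran from 229 through a median of 348 to 700 CPM in control and from 188 through 378 to 676 CPM in deltamethrin libraries. The groups overlapped, and it had the largest spread of the 8, with a BCV of 35.5% (90.8% of genes tested had a lower one). Its log2 fold change was -0.05 ± 0.19 (SE; 95% interval -0.43 to 0.33; unadjusted p = 0.802, adjusted p = 0.955). Snhg11 was related to both sets of RNAs. It gave r = 0.817 with Meg3 and r = 0.822 with Miat, and also r = 0.812 with Mirg and r = 0.722 with Rian (permutation p between 1e-05 and 3e-05, adjusted p between 4e-05 and 9.8e-05, rho from 0.745 to 0.817). Within the groups these 4 pairs gave r between 0.667 and 0.91, and without the 2 farthest libraries between 0.69 and 0.819. Its r with the mt-rRNA share was 0.51 (rho = 0.517, permutation p = 0.00342, adjusted p = 0.00821), with r = 0.551 and 0.47 within the groups, where adjusted p was 0.113 and 0.104, and r = 0.428 without the 2 farthest libraries (adjusted p = 0.05). That r of 0.51 lay below the median size over the 10053 genes, 0.578, and 57.2% of them exceeded it.

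Snhg14, at chr7:59307924-59975759 on the reverse strand, ran from 225 through a median of 279 to 574 CPM in control and from 245 through 298 to 521 CPM in deltamethrin libraries. The groups overlapped, and control replicates 7 and 2 and deltamethrin replicate 6 were its 3 highest libraries. Its log2 fold change was 0.05 ± 0.14 (SE; 95% interval -0.22 to 0.33; unadjusted p = 0.705, adjusted p = 0.933). It stood apart from the other 7 RNAs: its r with Meg3, Neat1 and Miat was -0.141, -0.122 and -0.314, none with an adjusted p under 0.05. Among the 28 pairs the only one of Snhg14 under that threshold was with Malat1, at r = 0.415 (rho = 0.417, permutation p = 0.0201, adjusted p = 0.0402), and there r was 0.56 within control, 0.26 within deltamethrin and 0.338 without the 2 farthest libraries (adjusted p = 0.123). Its r with the mt-rRNA share, 0.394 (rho = 0.377, permutation p = 0.0271, adjusted p = 0.0487), rested on few libraries: it was 0.782 within control, -0.0578 within deltamethrin, 0.28 without control replicate 2 and 0.125 without the 2 farthest. Over all libraries 67.8% of the 10053 genes had a larger r in size with that share.

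Inside Snhg14, 211 other genes are annotated over 668 kb, 208 of them snoRNAs. Of these 211, 78 passed the filter and 1 snoRNA gene, Gm24418, had an unadjusted p under 0.05 (log2 fold change 0.42, adjusted p = 0.813); it is named after its value was seen. The 3 most abundant were A230103L15Rik, Gm44829 and Gm26032. Ube3a, the ubiquitin ligase gene that the far end of the Snhg14 transcript overlaps on the opposite strand, by 3613 bases here, had 99.9 ± 33.9 CPM (SD, n = 31). Its level gave r = 0.778 with Snhg14 over the 31 libraries. Since use of strand in counting is not given in the sources used here, reads from the shared stretch cannot be told apart.

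**Figure D5:**
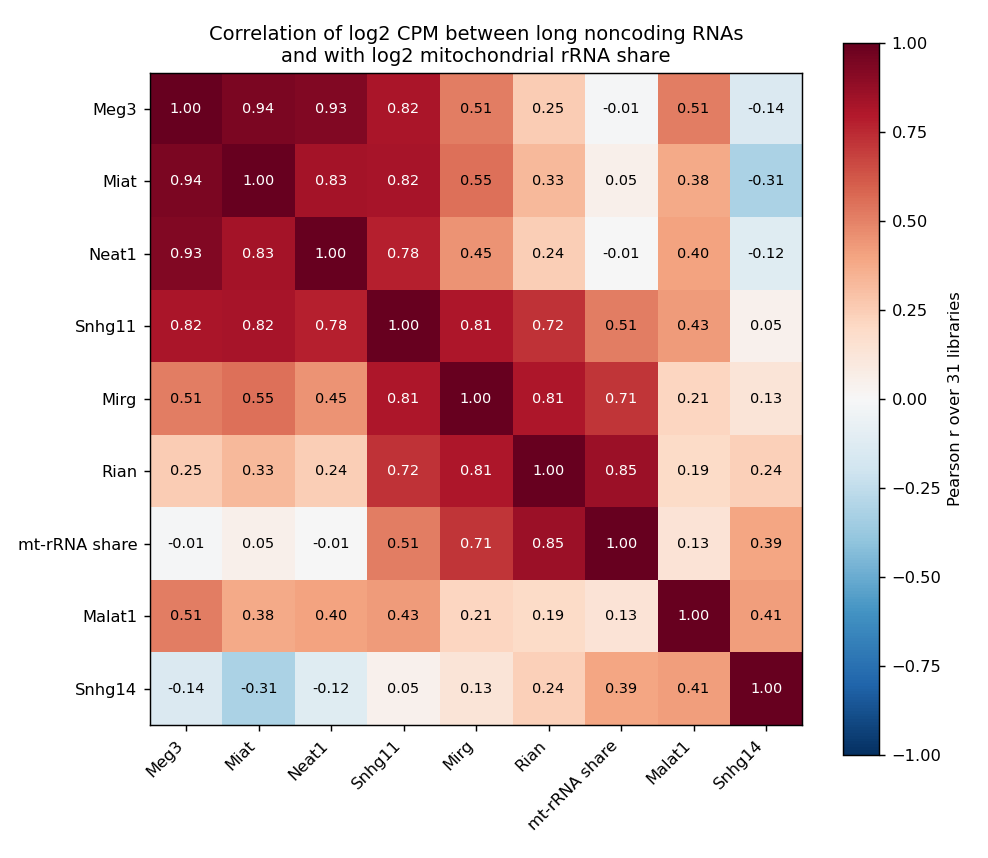
Pearson r of log2 CPM over the 31 libraries for each pair of RNAs and with the log2 mt-rRNA share; red is positive and blue negative. Meg3, Miat, Neat1 and Snhg11 form a block with r from 0.776 to 0.943, Snhg11, Mirg and Rian the second with r from 0.722 to 0.812, and Malat1 and Snhg14 stand outside both.

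In all, 16 of the 28 pairs had an adjusted p under 0.05. Within control alone 9 pairs did and within deltamethrin alone 11. How often pairs of other genes pass that threshold was not tested, so these counts do not set these RNAs apart from other genes. Many genes shared a source of variation, since the median size of r with the mt-rRNA share was 0.578 over the 10053 genes. For the 16 pairs the permutation p of rho lay between 1e-05 and 0.0318, and its adjusted value was over 0.05 for Malat1 with Neat1 alone (0.0573). Meg3, Miat and Neat1, the 3 that varied most closely together, gave r between -0.00849 and 0.0522 with the mt-rRNA share (adjusted p between 0.851 and 0.974). Scaled by total count alone, these 3 gave r between -0.27 and -0.178 with it (adjusted permutation p between 0.205 and 0.42). After the data had been seen, levels were also set beside the number that ends each sample title, which runs from 1 to 31 and whose meaning the labels do not give. Miat gave r = 0.77 with that number and rho = 0.778 (permutation p = 1e-05, adjusted over 9 relations p = 9e-05), r = 0.817 within control, r = 0.741 within deltamethrin and r = 0.724 without the 2 farthest libraries. Only 0.0696% of the 10053 genes had a larger r in size with the title number, and for Meg3, at r = 0.678 (rho = 0.657, permutation p = 5e-05, adjusted p = 0.000225), 0.836% did. Within the groups Meg3 gave r = 0.701 and 0.668, and r = 0.63 without the 2 farthest libraries.

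Neat1 gave r = 0.599 (rho = 0.531) and Snhg11 r = 0.578 (rho = 0.581) with the title number, with adjusted permutation p = 0.00078 and 0.00184, and without the 2 farthest libraries r was 0.558 and 0.496. Within control r was 0.646 for Neat1 and 0.456 for Snhg11, and within deltamethrin 0.595 and 0.672. Over all libraries 3.2% of the 10053 genes had a larger r in size with that number than Neat1, 4.25% than Snhg11 and 9.83% than Snhg14. Snhg14 ran the other way, at r = -0.501 (rho = -0.494, permutation p = 0.00436, adjusted p = 0.00785), with r = -0.298 within control, -0.687 within deltamethrin and -0.498 without the 2 farthest libraries. Rian, Mirg and Malat1 gave r = 0.148, 0.293 and 0.19, each with an adjusted permutation p over the threshold. The mean title number was 16.4 in control and 15.7 in deltamethrin libraries (permutation p = 0.858). With the title number held constant Meg3 and Miat still gave r = 0.897 and Meg3 and Neat1 r = 0.882. For these 5 RNAs the permutation p of rho with the title number lay between 1e-05 and 0.00546. The part in these levels of whatever the number stands for was not tested.

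For each RNA the 3 genes with the most similar levels over the 31 libraries were taken among 10052 genes, as a description. Beside Miat and Neat1, Meg3 was most like Coro6, a coronin of the actin cytoskeleton (r = 0.915). Neat1 was most like Meg3, Coro6 (r = 0.906) and the zinc finger gene Rreb1 (r = 0.899). Miat was most like Meg3, the splicing regulator Sfswap (r = 0.936) and Snrnp70, a protein of the U1 small nuclear ribonucleoprotein (r = 0.933). Snhg11 was most like Wsb1, which codes for a SOCS box protein (r = 0.978), Rsrp1, which codes for an arginine and serine rich protein (r = 0.951), and the long intergenic RNA Gm27000 (r = 0.949).

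Rian was instead most like Hmgn3, a nucleosome-binding protein gene (r = 0.935), the RNA helicase gene Ddx50 (r = 0.933) and the general transcription factor gene Gtf2a2 (r = 0.921). Mirg was most like Snhg20 (r = 0.908), Mir124a-1hg, the host of the neuronal miRNA miR-124 (r = 0.903), and the deacetylase gene Hdac10 (r = 0.899). Malat1 had the weakest leading matches, Dusp11, Nktr and Ccnt2, with r of 0.821, 0.82 and 0.771. Snhg14 was most like Gm45159, Purg and Dmd, the very long dystrophin gene, with r of 0.932, 0.919 and 0.91. Levels of different genes share the library they were counted in, so these r also carry what sets libraries apart.

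Genes of the same domains and pathways were read from the same fit, in lists chosen with earlier results of these data known. Of 6 other genes tested of the Dlk1-Dio3 domain 4 lay above 0 and 2 below, and 0 had an unadjusted p under 0.05; the smallest p-values were those of the deiodinase gene Dio3 (log2 fold change 0.26, unadjusted p = 0.128) and Dlk1 (0.35, unadjusted p = 0.128). Of 5 other genes tested of the Snrpn-Ube3a domain 3 lay above 0, and 0 had an unadjusted p under 0.05, with Ube3a (0.26) and Ndn (0.07) nearest to it. Of 22 other imprinted genes 16 lay above 0 and 6 below, with a median log2 fold change of 0.09, and 4 higher and 0 lower had an unadjusted p under 0.05, where 2.0% of all genes were higher and 2.37% lower at that threshold. The smallest p-values among them were those of Zim1 (0.37 ± 0.12, unadjusted p = 0.00492, adjusted p = 0.813) and Peg10 (0.36 ± 0.16, unadjusted p = 0.0276, adjusted p = 0.813), so none passed the adjusted threshold.

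Genes of partners of the nuclear RNAs and other noncoding RNAs were read in the same way. Of all genes tested 50.5% lay above 0 and 49.5% below, and 4.37% had an unadjusted p under 0.05. Of 9 paraspeckle protein genes 7 lay above 0 and 2 below, with a median log2 fold change of 0.06, and only Tardbp (0.12 ± 0.06, unadjusted p = 0.0438, adjusted p = 0.813) was under 0.05 unadjusted, with Taf15 (0.08) next. Of 9 nuclear speckle protein genes 8 lay above 0 and 0 had an unadjusted p under 0.05, with Srsf1 (0.10) and Srrm1 (0.11) nearest to it. Of 8 genes of Polycomb repressive complex 2, a chromatin complex studied as a partner of Meg3, 5 lay above 0 and 0 had an unadjusted p under 0.05, with Suz12 (0.12) and Jarid2 (0.10) nearest. Of 12 other snoRNA host genes tested 1 lay above 0 and 11 below, with a median log2 fold change of -0.17, and 0 had an unadjusted p under 0.05, with Snhg20 (-0.47) and Snhg8 (-0.26) nearest. Of 15 other brain long noncoding RNAs 6 lay above 0 and 9 below, and 0 had an unadjusted p under 0.05, with 1700020I14Rik (0.19) and Pantr1 (-0.20) nearest.

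Markers of other cell types and regions were read beside these values. Of all genes tested 50.5% lay above 0 and 49.5% below. At an unadjusted p under 0.05 by edgeR's quasi-likelihood test, 2.0% of all genes were higher and 2.37% lower. Markers of one list can vary together from library to library, so counts within a list are not counts of independent genes. Of the 11 neuronal markers 8 lay above 0 and 0 had an unadjusted p under 0.05, with Map2 (0.26) and Gad1 (0.12) having the smallest p-values. Of 9 choroid plexus markers 8 lay below 0, 3 of them with an unadjusted p under 0.05, and their summed level ranged from 271 to 1320 CPM in control and from 252 to 734 CPM in deltamethrin libraries. Of 9 cerebellar markers 9 lay above 0, 1 of them with an unadjusted p under 0.05, with sums from 186 to 631 CPM in control and from 212 to 838 CPM in deltamethrin libraries. All 8 striatal markers and all 5 blood markers lay below 0, and 0 of either had an unadjusted p under 0.05. All 8 astrocyte markers lay above 0, with Sox9 (0.27) at an unadjusted p = 0.0406. Of 7 endothelial markers 5 lay above 0, with Cldn5 (0.21) at an unadjusted p = 0.00407. Of 8 microglial markers 5 lay above 0, with Tmem119 (-0.15) at an unadjusted p = 0.0117, and of 8 oligodendrocyte markers 2 lay above 0 and 0 had an unadjusted p under 0.05. None of the markers in the 9 lists was at 0 in all libraries, no marker had an adjusted p under 0.05, and the part of tissue composition in the values of the 8 RNAs was not tested.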

How the data were processed

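The authors deposited raw read counts per gene, whole numbers with no normalization. Trimmomatic, HISAT2, SAMtools, MultiQC and the build GRCm38 are named, per the submitters' processing notes; how reads were counted, with which annotation and whether by strand is not given in the sources used here. Each of the 31 count columns was matched to its sample by title, and groups came from the agent label. Gene IDs were matched to GENCODE M21 (99.3% found), which gave coordinates and merged exon lengths.

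Genes were kept with edgeR 4.0.16 (R 4.3.3, filterByExpr, minimum count 10, minimum total 15), scaled by TMM factors and compared by edgeR's quasi-likelihood F-test (robust, no covariates) with Benjamini-Hochberg adjustment over all 19529 genes tested, at a threshold of 0.05. Fold changes are deltamethrin over control, and the SE was obtained from the fold change and its F value. CPM uses TMM-scaled library sizes, and log2 CPM adds a prior count of 2. Correlations used log2 CPM and two-sided permutation tests with 100000 resamples, and intervals of r use the Fisher transformation. The fit was checked on simulated data. Total counts of 17570311 to 38680621 and at least 237 counts per RNA keep counting error small beside the spread between libraries.

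Alternatives were other scaling factors, other count filters, leaving out mitochondrial genes, DESeq2 1.42.0, limma 3.58.1, covariates from mt-rRNA share or sva 3.50.0, and leaving out each library. The 8 RNAs, the related gene lists and the tests were chosen with earlier results of these data known. Chosen after the data were seen were the title number, partial correlations, correlations without control replicate 2, the pairs quoted singly, the intervals of r, the motifs, the printed sequences and the mean count of at least 10 in the interval between Meg3 and Mirg. Genes named in each list are the pair with the smallest p-values, the 3 most abundant in each interval and the 3 with the highest r for each RNA, except where stated. B830012L14Rik was also added after its values were seen. Promoter windows and miRNAs are RefSeq's on GRCm38.p6, with 7 of the 8 RNAs matched and Neat1 not.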

Additional observations from a re-analysis of the deposited data

How the results depend on the processing

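No gene passed an adjusted p of 0.05 under the 12 alternatives (smallest adjusted p between 0.0531 and 0.909) or without any single library (between 0.0521 and 0.982), and genes at an unadjusted p under 0.05 numbered 614 to 1948 and 526 to 1389. No adjusted p of the 8 RNAs was below 0.568, that of Rian with 4 surrogate variables (log2 fold change 0.09, unadjusted p = 0.0411). Of 344 recomputed log2 fold changes 304 kept their sign and 40 did not. Signs differed for Meg3 without scaling factors (0.043) and with the title number as covariate (0.019), for Rian by limma voom (-0.0081), and for Snhg11 without scaling factors (0.028), with mt-rRNA share (0.0064) and with surrogate variables (0.0075); without scaling factors the median of all genes was 0.04. Leaving out each library gave ranges of -0.077 to 0.086 for Meg3, -0.028 to 0.055 for Rian, -0.25 to -0.09 for Mirg, 0.10 to 0.17 for Malat1, -0.033 to 0.14 for Neat1, -0.12 to 0.029 for Miat, -0.11 to 0.044 for Snhg11, 0.0019 to 0.15 for Snhg14 and -2.44 to 0.27 percentage points for the difference in mt-rRNA share, the last without control replicate 2. Pairs with an adjusted p under 0.05 numbered 9 in control alone, against 16. RNAs related to the mt-rRNA share numbered 2 without scaling factors, 2 in deltamethrin alone and 2 without the 2 farthest libraries, against 4. The groups alone hold fewer samples, and the cause of the other differences was not tested. No paired analysis was possible because replicate numbers only follow the order of the samples. Spread between libraries, not depth, limits the comparison.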
